A study of Mus musculus with 13 samples.

Results

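The 7 genes described here are Notch1, Notch3, Dtx1, Hes1, Nrarp, Il2ra and Erg, found by exact gene name among the 57010 genes of each gene list. They were followed through split-pool single-cell RNA sequencing (Parse) of mouse thymus and spleen, in which fixed cells are labelled by rounds of well barcodes and unique molecular identifiers (UMIs) are counted. The Parse WT kit held 20 tissue samples, of which 4 are thymic lobes (41838 cells) and 16 are other samples whose condition the labels do not tie to a name (86786 cells). The Parse Mini kit held 4 thymic lobes of other mice (20085 cells). The thymic lobes came from untreated 2-month-old female C57BL/6N mice with no transgene, 2 lobes from each of 2 mice per kit, dissociated with collagenase/dispase and DNase I without sorting. Lobes of 1 mouse are not independent animals, so the p-values below are too small for a statement about mice. They weigh differences between cell classes against the spread that remains after each lobe's own level is taken out. That spread is estimated over all cell classes together.

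Notch receptors are single-pass membrane proteins that are cut after binding a Delta-like or Jagged ligand on a neighbouring cell. The freed intracellular part enters the nucleus and joins the DNA-binding protein RBPJ and a Mastermind coactivator to switch on target genes. In the thymus this signal commits progenitors to the T lineage and carries them through the double-negative (DN) stages, which lack CD4 and CD8, and it falls as cells become double positive (DP) for both coreceptors. In the spleen, signalling through NOTCH2 is known for its part in marginal zone B cells.

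Stages were set by UMIs of genes other than Notch1, Notch3, Dtx1, Hes1, Nrarp and Erg. The Il2ra gate uses a member of the gene set, so it is not independent of that set. An Il2ra-gated cell had at least 2 UMIs of Il2ra, which encodes the CD25 chain of the IL-2 receptor and marks the DN2 and DN3 stages, and no UMI of Cd4, Cd8a, Cd8b1 or Foxp3. DP-gated cells had UMIs of both coreceptors and none of Il2ra; the cycling ones had at least 3 UMIs of Mki67 and Top2a, and the resting ones had none of these and at least 1 of Rag1 and Rag2. Selected-gated cells had at least 3 UMIs of Tox, Itm2a and Cd69 in sum. They had none of Il2ra, Mki67, Top2a, Rag1, Rag2, S1pr1, Klf2 or Ccr7, and no coreceptor was required. Mature CD4-gated and CD8-gated cells had at least 2 UMIs of S1pr1, Klf2 and Ccr7 in sum and UMIs of only 1 coreceptor, CD4 or CD8. Mature-gated cells had none of Il2ra, Mki67, Top2a, Rag1 or Rag2. There were 231 Il2ra-gated cells in the WT kit (29, 51, 55 and 96 per lobe) and 121 in the Mini kit (28, 22, 40 and 31). They are few beside the 5581 and 5032 resting DP-gated cells.

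The label of the Il2ra gate was compared with early thymocyte genes it did not use. Kit, the stem cell factor receptor of early progenitors, had 111 ± 19.2 CPM (UMIs scaled to the total outside ribosomal RNA; mean ± SD over lobes, n = 4) in Il2ra-gated cells of the WT kit and 5.58 ± 1.10 in resting DP-gated cells. Myl10, a gene of early thymocytes, stood at 50.4 ± 20.7 against 2.26 ± 0.386. Ptcra, the pre-T-cell receptor alpha chain of DN3 cells, stood at 24.5 ± 10.5 against 5.27 ± 0.60, from 22 UMIs in the Il2ra-gated cells. In the Mini kit Kit stood at 66.1 ± 18.3 against 4.53 ± 1.33, and Myl10 at 79.1 ± 25.9 against 2.13 ± 1.27. Ptcra had 17.7 ± 13.9 there, from 7 UMIs and with the lowest lobe at 0, against 3.36 ± 0.676. It was not among the genes called in both kits. Kit was not confined to the Il2ra gate. Mature CD8-gated cells of the WT kit had 52.0 ± 57.1 CPM of it from 29 UMIs. Their highest lobe stood at 137 CPM, and the highest Il2ra-gated lobe at 129 CPM. Cycling DP-gated, selected-gated and mature CD4-gated cells of that kit had 7.73, 5.93 and 1.58 CPM. Other genes of the early thymocyte list were lower in Il2ra-gated than in resting DP-gated cells. Dntt, the terminal transferase that adds bases at receptor gene junctions, stood at 539 ± 154 against 664 ± 57.7 in the WT kit and at 660 ± 123 against 779 ± 28.6 in the Mini kit, with a log2 difference of -0.47 ± 0.13 and -0.45 ± 0.098 (adjusted p = 0.0029 and 0.00012, edgeR), although its lobes overlapped. Most cells with 2 or more Il2ra UMIs also had a coreceptor UMI and were left out by the gate (87, 260, 218 and 409 per WT lobe, and 161, 94, 150 and 131 per Mini lobe). Just outside the gate, 102 to 567 cells per WT lobe had exactly 1 Il2ra UMI, with any coreceptor.

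Promoters are shown for the tested members that have an entry, both receptors, Dtx1 and Erg, because these genes were called higher in Il2ra-gated than in resting DP-gated cells of both kits. They are RefSeq sequences on GRCm38.p6, 250 bases before to 50 bases after the annotated start, written 5′ to 3′ on the gene's strand. Entries matched 6 of the 7 genes. Capitals mark TGGGAA or its reverse complement TTCCCA, the core that RBPJ binds, searched on both strands. It occurred in 25.6% of 32851 promoters of this length.
Notch1 promoter, chr2:26503773-26504072, minus strand: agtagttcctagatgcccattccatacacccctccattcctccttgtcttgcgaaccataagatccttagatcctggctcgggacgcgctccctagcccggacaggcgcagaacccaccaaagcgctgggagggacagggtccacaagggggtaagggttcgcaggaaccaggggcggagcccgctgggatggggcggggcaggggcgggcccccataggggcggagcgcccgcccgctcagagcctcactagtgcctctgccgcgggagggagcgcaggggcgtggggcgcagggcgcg
Notch3 promoter, chr17:32166841-32167140, minus strand: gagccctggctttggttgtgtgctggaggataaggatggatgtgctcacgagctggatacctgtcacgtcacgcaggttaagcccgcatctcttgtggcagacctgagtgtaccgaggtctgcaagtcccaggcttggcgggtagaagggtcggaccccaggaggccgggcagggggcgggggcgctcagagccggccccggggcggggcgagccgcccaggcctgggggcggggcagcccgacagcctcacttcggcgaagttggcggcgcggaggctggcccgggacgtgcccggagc
Dtx1 promoter, chr5:120711620-120711919, minus strand: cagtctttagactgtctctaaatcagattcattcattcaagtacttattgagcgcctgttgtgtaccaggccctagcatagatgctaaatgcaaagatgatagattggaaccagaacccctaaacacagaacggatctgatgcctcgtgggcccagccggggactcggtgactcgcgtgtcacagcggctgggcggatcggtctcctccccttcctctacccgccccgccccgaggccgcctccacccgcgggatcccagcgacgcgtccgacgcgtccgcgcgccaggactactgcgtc
Erg promoter, chr16:95459299-95459598, minus strand: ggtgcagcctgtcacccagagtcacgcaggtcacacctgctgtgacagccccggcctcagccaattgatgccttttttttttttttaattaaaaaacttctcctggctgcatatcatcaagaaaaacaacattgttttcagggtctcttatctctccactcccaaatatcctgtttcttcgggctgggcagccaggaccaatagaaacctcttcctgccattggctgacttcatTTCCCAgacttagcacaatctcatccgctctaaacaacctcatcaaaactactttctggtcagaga
Among the entries of these genes the letters were found only in this window of Erg, which has 3 annotated starts. The window printed for Erg is thus the one with a match, at a start inside the gene. Its windows at 95586544-95586843, the 5′ end of the gene, and 95530316-95530615 held no match and are not printed. A match or its lack in 300 bases describes the letters alone.

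Both receptors had their highest mean level in Il2ra-gated cells, above the 5 later gates. Notch1 (ENSMUSG00000026923, chr2:26457903-26516663, minus strand) encodes the receptor required for T lineage commitment. In the WT lobes it stood at 1071, 499, 818 and 698 CPM in Il2ra-gated cells and at 94.3, 61.3, 85.6 and 65.1 CPM in resting DP-gated cells. In the Mini lobes the values were 1054, 1084, 855 and 1246 CPM against 80.3, 82.6, 77.8 and 77.9 CPM. The groups did not overlap in either kit. The log2 fold change over resting DP-gated cells was 3.22 ± 0.12 (SE) in the WT kit and 3.52 ± 0.11 in the Mini kit, with adjusted p of 8.1e-29 and 5.6e-45 (edgeR quasi-likelihood test, lobe as a block, Benjamini-Hochberg over all genes tested). Against cycling DP-gated cells, at 163 ± 42.9 CPM in the WT kit, it was 2.20 ± 0.11 and 2.30 ± 0.098. Notch1 did not go on falling in the most mature cells: the means were 63.7 ± 11.8 CPM in selected-gated, 114 ± 55.7 in mature CD4-gated and 122 ± 19.1 in mature CD8-gated cells of the WT kit, and the lobes of the mature CD4-gated cells overlapped those of both neighbours.

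Notch3 (ENSMUSG00000038146, chr17:32120820-32166852, minus strand) encodes the receptor that is itself induced by Notch signalling in DN cells. It stood at 589, 511, 361 and 497 CPM in the Il2ra-gated cells of the WT lobes and at 593, 454, 535 and 846 CPM in those of the Mini lobes. Resting DP-gated cells had 46.0, 48.5, 48.7 and 61.2 CPM in the WT kit and 43.4, 44.7, 47.3 and 38.4 CPM in the Mini kit. Every Il2ra-gated value was above every resting one. The log2 fold change was 3.09 ± 0.14 and 3.61 ± 0.15 over resting DP-gated cells, and 2.72 ± 0.13 and 3.01 ± 0.14 over cycling ones. In mature CD4-gated cells of the WT kit Notch3 had 1 UMI in 188 cells, against 490 UMIs in the 231 Il2ra-gated cells. That is a ratio of 279 with a 95% counting interval of 49.8 to 11027. In the Mini kit, with 5 UMIs in the mature CD4-gated and 304 in the Il2ra-gated cells, the ratio was 27.9 (11.8 to 86.4). Both ratios depend on single lobes: in the Mini kit 4 of the 5 UMIs were in lobe T-1-B, and the ratio was 89.4 without it and 11.7 without T-2-B, while in the WT kit it was 161 without lobe 1 and, with no UMI left, at least 66.1 without lobe 4. The intervals cover counting error only.

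**Figure D1:**
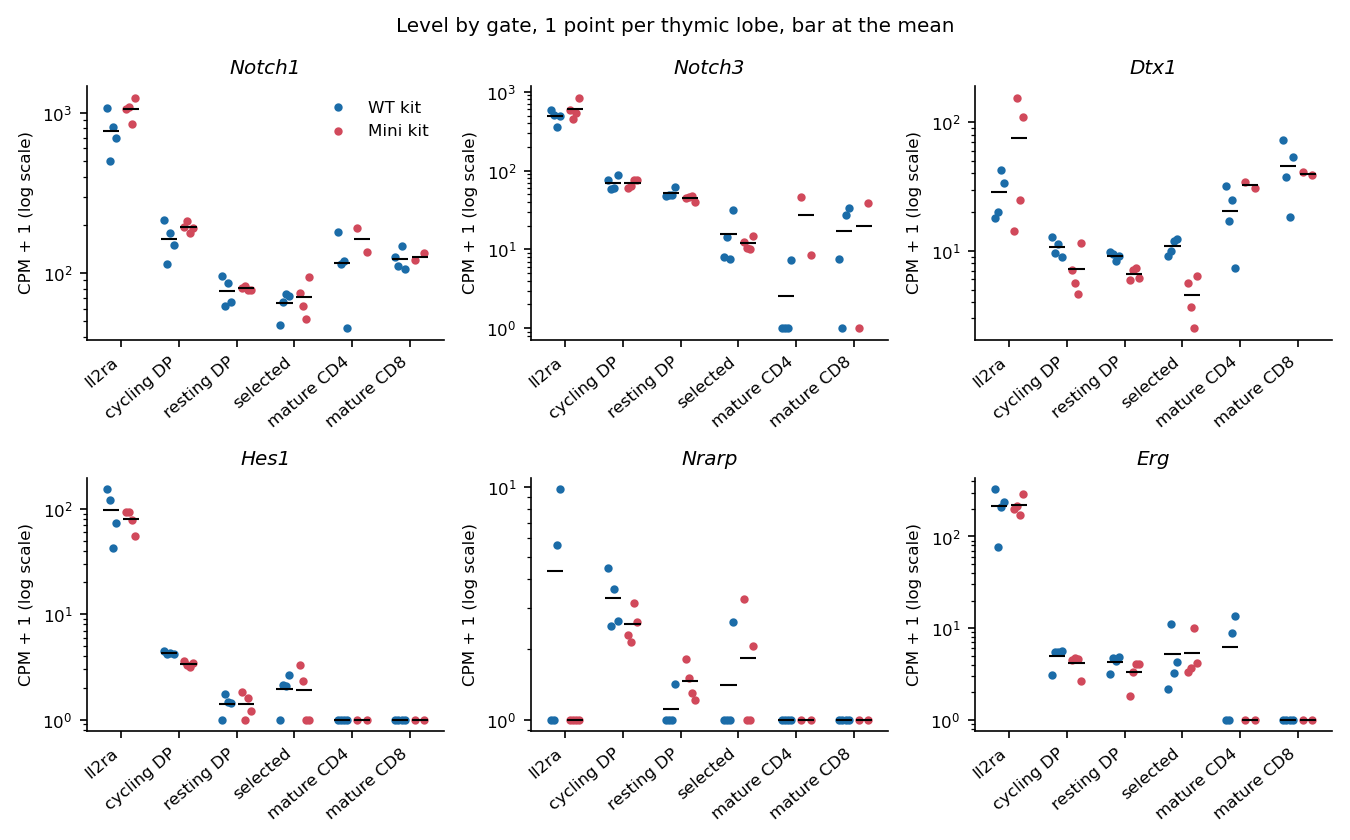
Level of 6 genes by gate, as CPM + 1 on a log axis, with 1 point for each thymic lobe with at least 20 cells in the gate and a bar at the mean. Il2ra-gated lobes lie above all DP-gated lobes for Notch1, Notch3, Hes1 and Erg in both kits, while Dtx1 is also present in mature cells and Nrarp is near 0.

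Of the 5 tested members, Hes1 had the largest fitted fold over resting DP-gated cells. Hes1 (ENSMUSG00000022528, chr16:30064384-30067796, plus strand) encodes a transcriptional repressor and classic Notch target. Il2ra-gated cells had 153, 120, 41.6 and 72.2 CPM in the WT lobes and 92.3, 92.9, 77.2 and 54.2 CPM in the Mini lobes. Cycling DP-gated cells had 3.17 to 3.47 CPM in the WT lobes, and resting DP-gated cells had 6 UMIs in all, or 0 to 0.734 CPM. The lobes did not overlap. The log2 fold change was 4.67 ± 0.32 over cycling and 7.54 ± 0.45 over resting DP-gated cells in the WT kit, and 4.84 ± 0.47 and 7.28 ± 0.60 in the Mini kit. Without lobe 1, the highest, the WT fold over resting DP-gated cells was 6.91. No UMI was seen in mature CD4-gated cells of either kit, so against a floor of 3 UMIs over the group the level in Il2ra-gated cells was at least 16.7-fold higher in the WT kit and at least 5.65-fold higher in the Mini kit. A Hes1 UMI was seen in 24.7% of Il2ra-gated and 0.108% of resting DP-gated WT cells, at median depths of 4400 and 2731 UMIs; with every cell thinned to 1000 UMIs, leaving out 2 and 216 shallower cells, the shares were 6.99% and 0.0186%.

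Dtx1 (ENSMUSG00000029603, chr5:120680202-120711927, minus strand) encodes Deltex 1, a ubiquitin ligase that is a target and modulator of Notch signalling. It stood at 17, 18.9, 41.6 and 32.8 CPM in the Il2ra-gated cells of the WT lobes, from 3, 3, 9 and 15 UMIs, and at 7.27 to 8.87 CPM in resting DP-gated cells. In the Mini lobes the 4 values were 13.2, 155, 23.8 and 108 CPM, from 1, 15, 4 and 16 UMIs, against 4.92 to 6.36 CPM. The Mini lobes T-1-A and T-2-A were low and T-1-B and T-2-B high, and all lay above their resting counterparts. The split follows the last letter of the lobe name. The study uses A and B for the mice of its main samples, but the meaning of the letter in the Mini names is not given. The log2 fold change over resting DP-gated cells was 1.77 ± 0.37 in the WT kit (adjusted p = 5.9e-05, edgeR) and 3.49 ± 0.43 in the Mini kit (adjusted p = 9.3e-11). Over cycling DP-gated cells it was 1.62 ± 0.35 and 3.40 ± 0.43, and 2.76 in the Mini kit without lobe T-1-B. Dtx1 was also present in mature cells. Against mature CD4-gated cells, at 19.3 ± 10.5 CPM in the WT kit, the log2 difference was 0.57 ± 0.52 (adjusted p = 0.45) and in the Mini kit 1.51 ± 0.67 (adjusted p = 0.11). Mature CD8-gated cells of the WT kit had 44.6 ± 23.3 CPM, and their lobes overlapped those of Il2ra-gated cells.

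Nrarp (ENSMUSG00000078202, chr2:25180758-25183339, plus strand) encodes a small ankyrin repeat protein that is induced by Notch and feeds back on it. It was near the limit of detection, with 5 UMIs in the Il2ra-gated cells of the WT kit (0, 0, 1 and 4 per lobe) and none in those of the Mini kit. Cycling DP-gated cells had 73 UMIs in the WT kit, or 2.32 ± 0.911 CPM. Nrarp did not pass the filter on low counts and was not tested.

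Erg (ENSMUSG00000040732, chr16:95359169-95586593, minus strand) encodes an ETS factor of stem and progenitor cells that is known to be shut off around T lineage commitment. It stood at 329, 75.8, 208 and 239 CPM in the Il2ra-gated cells of the WT lobes and at 198, 217, 172 and 291 CPM in those of the Mini lobes. Resting DP-gated cells had 2.15 to 3.84 CPM in the WT kit and 0.820 to 3.03 CPM in the Mini kit. The lowest Il2ra-gated lobe was still above every DP-gated lobe. The log2 fold change was 5.91 ± 0.29 and 6.25 ± 0.33 over resting DP-gated cells, and 5.57 ± 0.26 and 5.90 ± 0.32 over cycling ones. Mature CD4-gated cells of the Mini kit had no Erg UMI in the lobes used, so Il2ra-gated cells were at least 16.5-fold higher there against 3 UMIs over the group; a lobe with 14 such cells, under the limit of 20, had 1.

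Il2ra (ENSMUSG00000026770, chr2:11642807-11693193, plus strand) defined the gate, so its level of 1632 ± 330 CPM in the WT kit and its absence from the other gates are set by the rule. Foxp3-gated thymocytes, chosen by the defining factor of regulatory T cells, had 1302 CPM of Il2ra in 64 WT cells, with 11.5 CPM of Notch3 and 5.76 CPM of Erg from 2 UMIs and 1 UMI. Notch1 stood at 231 CPM there, and at 377, 75.6, 0 and 272 CPM in the 4 lobes, which held 13 to 19 such cells each, so the lobes lay on both sides of the resting DP-gated values. Hes1 had 5 UMIs, 4 of them in lobe 1. Without that lobe Notch1 went from 231 to 151 CPM and Hes1 from 28.8 to 8.89 CPM. In the 16 other samples, 200 cells that met the Il2ra gate had 1353 CPM of Il2ra, 239 CPM of Dtx1, no UMI of Notch3 or Hes1, and 1 UMI of Erg. These are sums over samples with no replicate error.

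All 5 tested members were higher in Il2ra-gated than in resting DP-gated cells in both kits, where 24.4% of 8879 genes in the WT kit and 19.4% of 9667 in the Mini kit were called higher. The same 5 were higher than in cycling DP-gated cells, where 18.1% and 12.4% of genes were. Against mature CD4-gated cells 4 of the 5 were called, Dtx1 being the exception, beside 16.1% and 9.07% of genes. Hes1 and Erg passed the low-count filter only through their level in Il2ra-gated cells, so for them a call of higher was partly fixed in advance. The median log2 difference over all genes was -0.03 against resting DP-gated cells in the WT kit and -0.04 in the Mini kit. No member's fold change over resting DP-gated cells was called different between the kits (adjusted p = 0.16 for Dtx1, whose fold was 1.72 log2 units larger in the Mini kit, edgeR interaction term), where 0.109% of 9139 genes were. When cells with coreceptor UMIs were let into the Il2ra gate, the folds over resting DP-gated cells were smaller but still called, at 2.39 and 2.59 for Notch1, 2.15 and 2.55 for Notch3, 6.39 and 6.22 for Hes1, 1.30 and 2.21 for Dtx1, and 4.63 and 5.11 for Erg. First-round wells, which share a barcoding step, were also compared. Notch1, Notch3 and Erg were higher in Il2ra-gated than in resting DP-gated cells in 8 of 8 WT wells and 12 of 12 Mini wells. Hes1 and Dtx1 each were in 7 of 8 and 9 of 12. The wells are parts of the same lobes and no further replicates. They held 11 to 68 Il2ra-gated cells in the WT kit and 4 to 19 in the Mini kit. The share of all genes that reach these counts was not computed.

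**Figure D2:**
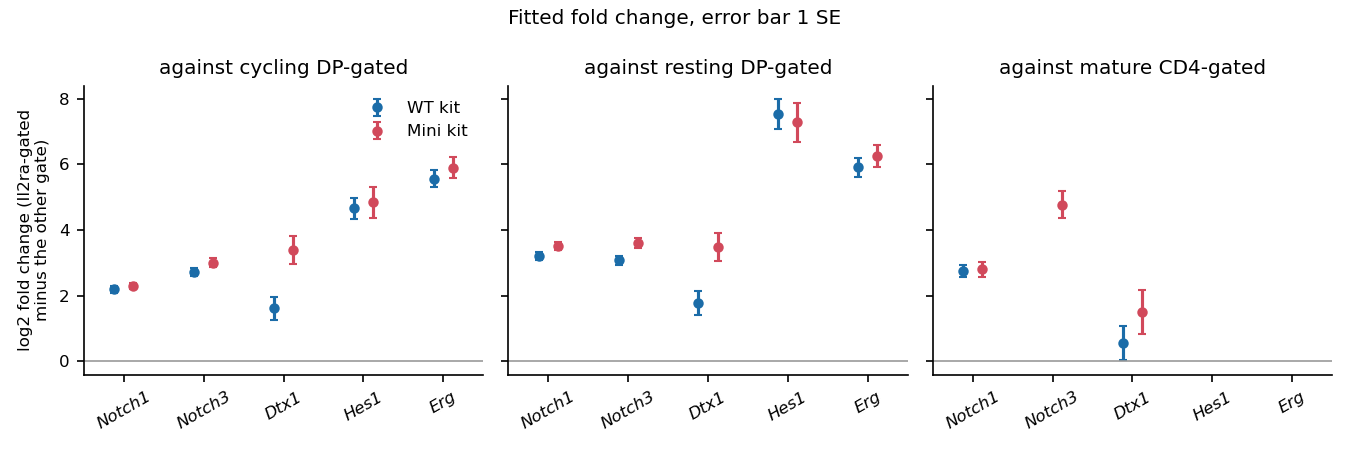
Log2 fold change of the 5 tested genes in Il2ra-gated against 3 later gates, with 1 SE, for each kit. Genes with 3 or fewer UMIs in the other gate are not drawn. The folds over resting DP-gated cells run from 1.77 for Dtx1 in the WT kit to 7.54 for Hes1.

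Levels of Notch1, Notch3, Hes1 and Erg were also higher in thymic cells with more Il2ra UMIs when cells with any coreceptor were pooled. From 0 through 1, 2, 3 to 4 and at least 5 Il2ra UMIs, Erg in the WT kit stood at 4.49, 14.7, 39.5, 68.4 and 124 CPM. Notch3 went from 55.5 CPM over 89.6, 161 and 258 to 291 CPM, and Hes1 from 2.39 to 47.5 CPM. Dtx1 in the WT kit stood at 11.5, 10.1 and 9.67 CPM up to 2 UMIs and reached 28.7 CPM in the highest bin. Each step of Notch1, Notch3, Hes1 and Erg was upward in both kits in these pooled bins. Among cells with no coreceptor UMI, Notch1 and Erg rose at each step in the WT kit, but Notch3 went from 711 CPM (611 to 824) at 3 to 4 UMIs to 432 CPM (380 to 489) at 5 or more, and Hes1 from 99.4 to 85.0 CPM with overlapping intervals. In the Mini kit the last step there was downward for Notch1 (1101 to 1093 CPM), Notch3 (648 to 625 CPM) and Hes1 (78.1 to 73.1 CPM), with overlapping intervals, and upward for Erg (156 to 289 CPM). Deeper cells fall in higher bins, with median UMIs from 2949 to 10441 in the WT kit, and the part of depth in this was not tested. WT cells with 5 or more Il2ra UMIs and no coreceptor UMI had a median of 5285. Most cells with 2 or more Il2ra UMIs also had a coreceptor UMI. The study reported doublets in both Parse libraries. No doublet caller was run here, and the part of doublets in these bins was not tested. Cd3e, a T-cell receptor subunit that the bins do not use, stood between 238 and 257 CPM in the pooled WT bins. Among WT cells with no coreceptor UMI it ran from 184 to 255 CPM, and these values do not measure the part of depth.

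**Figure D3:**
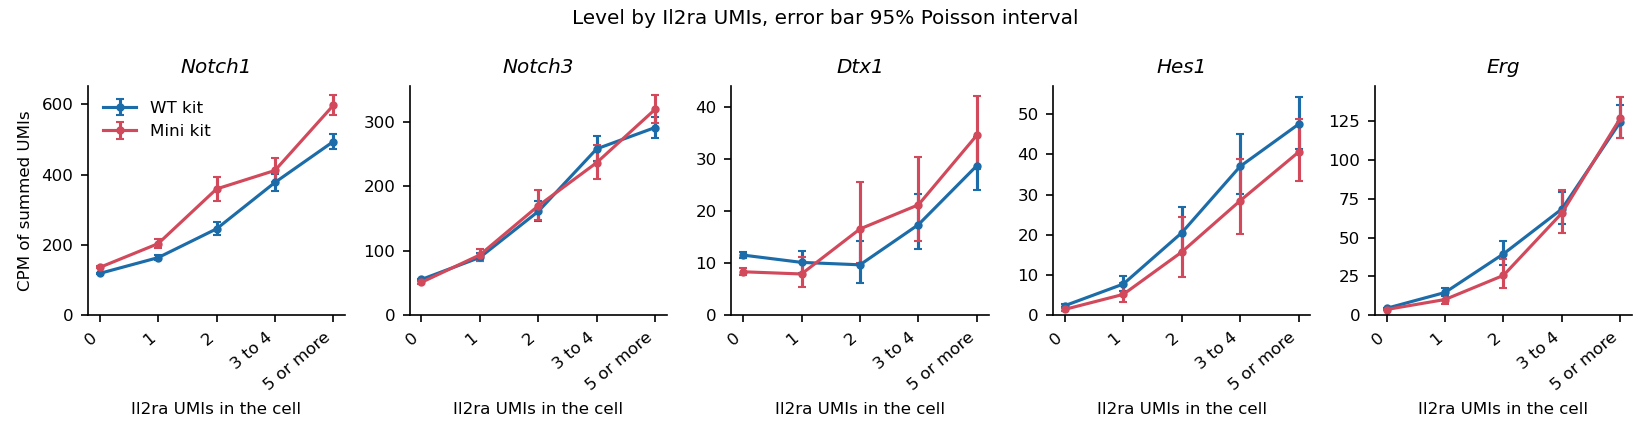
CPM of 5 genes in thymic cells binned by their Il2ra UMIs, any coreceptor, with 95% Poisson intervals that cover counting error only. Notch1, Notch3, Hes1 and Erg rise at each step in both kits when all coreceptor classes are pooled.

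Within the Il2ra gate, Notch1, Notch3, Dtx1 and Hes1 had lower levels in cycling cells of both kits. The 106 WT cells with no UMI of Mki67 or Top2a had 804 CPM of Notch3 (95% Poisson interval 709 to 908), and the 65 with at least 3 had 152 CPM (119 to 193). In the Mini kit the values were 960 and 267 CPM in 73 and 22 cells. Dtx1 went from 52.8 to 10.9 CPM in the WT kit and from 119 CPM to no UMI in the Mini kit. Notch1 went from 1034 to 549 CPM in the WT kit and from 1148 (1010 to 1299) to 842 (708 to 995) CPM in the Mini kit. Hes1 went from 121 to 47.9 CPM in the WT kit, with intervals that did not overlap, and from 105 to 60.6 CPM in the Mini kit, where the intervals overlapped. Erg stood at 202 (156 to 257) and 213 (173 to 260) CPM in the WT kit and at 270 (205 to 348) and 145 (93.2 to 216) CPM in the Mini kit, with overlapping intervals in each. Cells with a UMI of Kit or Cd44, markers of the earlier DN2 stage, had less Notch3 than those without, at 302 against 609 CPM in the WT kit and 312 against 769 in the Mini kit. Erg was higher in the Kit or Cd44 cells of the WT kit, at 325 against 154 CPM, while in the Mini kit the values were 203 and 229 CPM with overlapping intervals. The cells compared differ in depth, with median UMIs of 3510 in the cells without and 8655 in those with Mki67 and Top2a in the WT kit and 3161 and 7437.5 in the Mini kit, and of 4022 and 6060, and 3465 and 6392, in the split by Kit and Cd44; the part of depth was not tested. These are sums over lobes, and no test over lobes was run.

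Other genes of the pathway were called in both directions. Of 41 further Notch pathway genes (ligands, receptors, processing enzymes, cofactors and targets), 26 were tested in the WT kit and 27 in the Mini kit. Against resting DP-gated cells 7 were higher, 9 lower and 10 not called in the WT kit (median log2 difference -0.21), and 2, 6 and 19 in the Mini kit (-0.19). Over all genes 24.4% were called higher in the WT kit and 19.4% in the Mini kit, and 23.6% and 18.3% were called lower. The pathway genes called higher in both kits were Myc and Maml3. Myc, the growth regulator and Notch target, was higher by 3.55 ± 0.30 and 3.69 ± 0.40 log2 units. Maml3, a Mastermind coactivator, was higher by 2.17 ± 0.12 and 2.39 ± 0.089. Maml3 stood at 1033 ± 283 CPM in Il2ra-gated and 206 ± 25.2 in resting DP-gated cells of the WT kit. Genes lower in both kits included Itch, a ubiquitin ligase that acts on Notch, with log2 differences (Il2ra-gated minus resting DP-gated) of -0.88 and -0.65. Kdm5a and Spen, corepressors at RBPJ sites, had differences of -0.52 and -0.57, and of -0.45 and -0.58. Those of Maml2 were -0.30 and -0.36.

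Of 25 early thymocyte genes, 18 were tested; 9 were higher and 8 lower than in resting DP-gated cells in the WT kit (median log2 difference 0.55), and 9 and 6 in the Mini kit (0.26). Over all genes 24.4% were called higher and 23.6% lower in the WT kit, and 19.4% and 18.3% in the Mini kit. Those called lower in both kits included Tcf7, a transcription factor of T-cell commitment, with log2 differences of -1.61 and -1.78, Tcf12, with -0.91 and -0.81, Myb, with -0.80 and -0.45, and Bcl11b, with -0.53 and -0.31; these, like Dntt, were named after their values were seen. Cpa3, a mast cell and progenitor protease, was higher by 6.62 ± 0.60 and 5.89 ± 0.75. Myl10 was higher by 4.24 ± 0.40 and 5.05 ± 0.46, Kit by 4.22 ± 0.29 and 3.74 ± 0.46, and Bcl11a, a progenitor transcription factor, by 3.77 ± 0.30 and 4.74 ± 0.78. Mef2c was higher by 2.07 ± 0.31 and 2.43 ± 0.94. Cpa3, Myl10 and Bcl11a passed the low-count filter only through their level in Il2ra-gated cells, so their direction was partly fixed in advance.

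The genes most like each member over the 6 thymic gates were picked in the WT kit, by Pearson r of mean log2(CPM + 1) among 9465 genes. No such ranking was made in the Mini kit, where the r of some of these picks was much lower. Cdkn1a, a cell cycle inhibitor, was most like Hes1 (r = 0.999 in the WT kit and 0.995 in the Mini kit). Plcg2, a phospholipase, was most like Erg (0.996 and 0.964). For Notch1 it was Heatr5a (0.994 and 0.808), for Notch3 Apaf1 (0.994 and 0.536) and for Dtx1 Rlim (0.995 and 0.249). With 6 gates that share libraries these r are descriptions.

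In the 16 other samples, Dtx1 was abundant in B cells. B-gated cells (at least 3 UMIs of 6 B-cell genes; 40244 cells) had 109 CPM of Dtx1 in the lowest sample, 231 in the median and 370 in the highest. T-gated cells (15875) had 25.4, 179 and 364 CPM. B-gated cells were higher in 8 of 16 samples, which 58.4% of 15895 genes reach. The names in the table of cells carry 3 prefixes, CVS_C, CVS_S and YD_C, which the labels do not explain. In a split by prefix chosen after seeing the data, Dtx1 was higher in B-gated cells in 3 of 5 CVS_C, 5 of 6 CVS_S and 0 of 5 YD_C samples. In the YD_C samples it stood at 173 to 289 CPM in B-gated and 223 to 364 CPM in T-gated cells, and 25.6% of 13101 genes were lower in B-gated cells in all 5. Hes1 was low in both: 2.07, 5.75 and 10.8 CPM in B-gated and 0, 0.603 and 4.14 CPM in T-gated cells, from 815 and 23 UMIs. It was higher in B-gated cells in 15 of 16 samples, which 14.7% of genes reach, with a median difference of 2.16 on the log2(CPM + 1) scale, which understates ratios of values this low. Notch1 was lower in B-gated cells in 16 of 16 samples (28.3 to 62.9 against 144 to 232 CPM; 7.42% of genes). The labels tie no condition to these samples or prefixes, so no test was made.

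B-gated cells with at least 2 UMIs of 4 marginal zone genes (Fcrl5, Cd1d1, S1pr3 and Myof) and none of Fcer2a had more Dtx1 than those with Fcer2a alone, a follicular marker. The lowest, median and highest samples stood at 150, 432 and 761 CPM against 91.3, 161 and 306 CPM. The difference was upward in 13 of 15 samples with enough cells, which 9.06% of 12672 genes reach, with a median difference of 0.97 in log2(CPM + 1). It was upward in 4 of 5 CVS_C, 4 of 5 CVS_S and 5 of 5 YD_C samples, with median differences of 0.71, 0.72 and 1.83 on that scale. For Hes1 the marginal zone list was higher in 11 of 15 samples, which 21.8% of genes reach, with a median difference of 0.32 on the same scale, although the medians over the 15 samples were 5.16 and 5.45 CPM. Hes1 was higher in 2 of 5 CVS_C, 4 of 5 CVS_S and 5 of 5 YD_C samples, at 9.08 to 30.2 against 5.46 to 7.88 CPM in the last, where 15.1% of 10037 genes were higher in all 5. Cr2, which encodes the CD21 receptor that marginal zone cells carry at high level, was higher in all 5 YD_C samples, at 1253 to 1717 against 806 to 1051 CPM, and in 0 of the 10 CVS_C and CVS_S samples, at 171 to 628 against 620 to 872 CPM. Notch2 was lower in 15 of 15 (2.38% of genes). In the YD_C samples Notch2 stood at 480 to 559 against 512 to 678 CPM. The label was thus borne out by Cr2 in the YD_C samples only, and by Notch2 in no group of samples. The cells are named by the 4 genes.

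**Figure D4:**
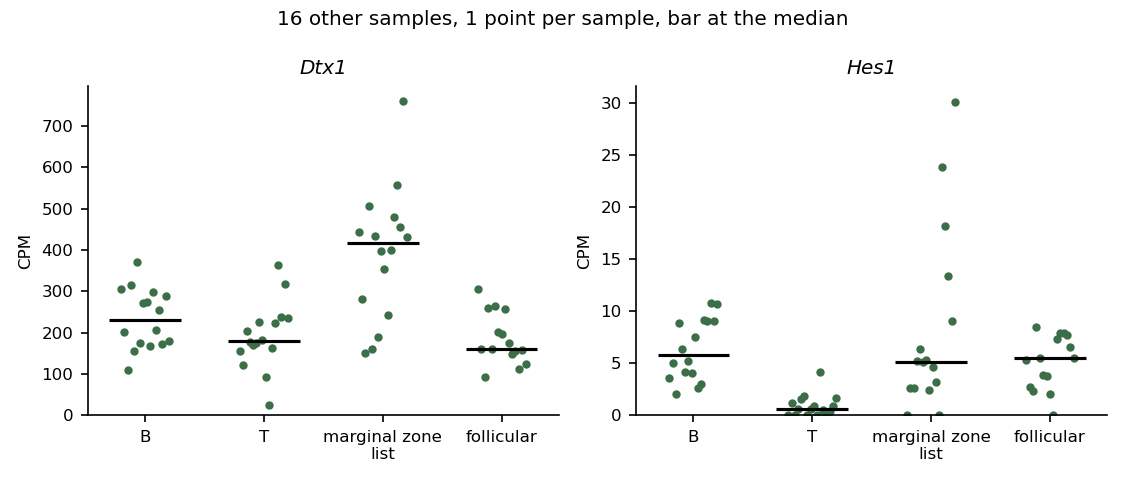
Dtx1 and Hes1 in CPM in B-gated, T-gated, marginal zone list and follicular-gated cells of the 16 other samples, 1 point per sample with at least 20 cells and a bar at the median. Dtx1 medians are 231, 179, 416 and 161 CPM, the last over 15 samples.

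Erg was also found outside T-lineage cells. In the 16 other samples, cells with at least 3 UMIs of the neutrophil genes S100a9 and Csf3r (1633 cells) had 305 CPM of Erg (95% Poisson interval 286 to 325), cells with Lyz2 and Csf1r (1928) had 116 CPM, and 83 cells with the progenitor genes Cd34, Mpo and Gata2 had 193 CPM. Cells with the endothelial genes Cdh5, Flt1 and Pecam1 were lower there, at 18.1 CPM (12.3 to 25.7) in 425 cells, but had 137 CPM (76.5 to 225) in 27 cells of the WT thymic lobes. B-gated and T-gated cells had medians of 7.65 and 7.70 CPM. Neutrophil, B-cell and myeloid genes were barred from the thymic gates beyond 1 UMI of a list of 10. Its only neutrophil gene was S100a8, and it held none of the progenitor or endothelial genes named here. The part of such cells in the Erg of the Il2ra gate was not tested.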

How the data were processed

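Raw UMI counts per gene and cell were deposited by the authors, who ran split-pipe on mm10 (versions not given in the sources used here; Cell Ranger and mm10 per the labels). The 10x data were not analysed here. Tissue samples came from the table of cells, where 8 of 12 columns were not used. The 4 WT samples sharing a name prefix were taken as the thymic lobes, since only they number 4 and their mean of 10460 cells equals that stated for the lobes. Kept were 39369 WT and 19273 Mini thymic cells (UMI total from 500 to 25000, mitochondrial share no higher than 15%), with 30450786 to 124106974 UMIs per WT lobe. No doublet caller was run. Barcodes recur across sublibraries in 34.9% of WT and 13.5% of Mini cells.

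UMIs were summed per lobe and gate (at least 20 cells, which leaves 2 Mini lobes for mature CD4-gated cells) and tested with edgeR 4.0.16, TMM scaling, filterByExpr and the lobe as block, since both gates of a lobe come from 1 suspension; gating genes were not counted as results. Ribosomal RNA was left out of totals. Alternatives included DESeq2 1.42.0. Intervals cover counting error only. Gates, members and lists were chosen with earlier results of these data known. The named genes were the members, up to 6 genes per list with the largest difference among those called with the same sign in both kits against resting DP-gated cells, and the most alike genes; 1 gene that the rule names is not reported here. The edgeR fit was tested on simulated counts. Gene positions are from GENCODE M21 (GRCm38).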

Additional observations from a re-analysis of the deposited data

Results flagged for a closer look

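Of 34 groups of 4 lobes with at least 10 UMIs of the gene, 2 held a lobe far from the others, and chance alone flags about 1 in 20 such groups. Both are Erg in cycling DP-gated cells. In the WT kit lobe 1 had 2.08 CPM against 4.46, 4.49 and 4.66 CPM in the other lobes, from 6 UMIs. In the Mini kit lobe T-2-B had 1.62 CPM against 3.51, 3.62 and 3.69 CPM, also from 6 UMIs.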

How the results depend on the processing

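The 5 tested members kept their direction in all 3 comparisons and both kits under every alternative run. For Hes1 and Erg that direction was partly fixed in advance, since they passed the low-count filter only through their level in Il2ra-gated cells. Under these alternatives 2 calls changed. Dtx1 against mature CD4-gated cells of the Mini kit passed the threshold with the Il2ra gate at 3 UMIs (log2 difference 1.85, adjusted p = 0.033, edgeR). Hes1 there lost it without replicate 4 (adjusted p = 0.067), which leaves 1 mature CD4 lobe, assumed to vary like the other groups; the number of genes called then went from 882 higher and 813 lower to 414 and 452. Members called were 5, 5 and 4 per kit for cycling DP, resting DP and mature CD4-gated cells; leaving out each replicate gave 5 to 5, 5 to 5 and 3 to 4. Without the replicate block, counts of members called were again 5, 5 and 4 in each kit. Without the low-count filter Nrarp was also called against resting DP-gated cells of the WT kit (6 members, log2 4.48, adjusted p = 0.00060, from 5 and 2 UMIs). With no coreceptor requirement folds shrank in each comparison, as given above for resting DP-gated cells; over cycling DP-gated cells Notch1 stood at 1.27 and 1.32. DESeq2 split the calls against resting DP-gated cells into 2573 higher and 1549 lower (edgeR 2170 and 2106) in the WT kit and 2389 and 1273 (1882 and 1777) in the Mini kit, and moved the median of all genes to 0.10 and 0.12. The medians for Dtx1 and Hes1 in B cells moved by less than 1 SD under each alternative. The few Il2ra-gated cells limit Dtx1, with 30 and 36 UMIs, and Nrarp.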
